A study of Homo sapiens with 3 samples.

Results

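The nuclear genes of oxidative phosphorylation were taken by symbol from the GENCODE annotation of hg19. A protein-coding gene was a member when its symbol started with NDUF, UQCR, COX4, COX5, COX6, COX7, COX8 or ATP5, or was SDHA, SDHB, SDHC, SDHD or CYC1. The rule found 99 of 20136 protein-coding nuclear genes. They comprised 37 subunits of complex I, 4 of complex II, 10 of complex III, 19 of complex IV (NDUFA4 and NDUFA4L2 included) and 17 of complex V. The remaining 12 were not subunits of a complex in the lists used: 8 NDUFAF assembly factors of complex I, the ATP synthase inhibitor ATP5IF1, the readthrough genes NDUFC2-KCTD14 and ATP5MF-PTCD1, and ATP5MGL.

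Chromatin was from MDA-MB-231, a triple-negative human breast cancer line derived from a pleural effusion, which carried no labelled knockdown or synchronising treatment in these libraries. Cells near confluence were fixed with 1% formaldehyde for 10 min, and fragments were immunoprecipitated with 4 µg of an antibody against either BMAL1 or MAX and sequenced as single reads. Each antibody had 1 library and shared the 1 input, which left no replicate spread for any value, and no p-value between conditions is given. The BMAL1 list held 756 peaks from 13866783 tags and the MAX list 13650 peaks from 11545865 tags, both called against 29308882 input tags.

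Oxidative phosphorylation is carried out in the inner mitochondrial membrane. Complexes I and II pass electrons from NADH and succinate to coenzyme Q, complex III passes them to cytochrome c and complex IV to oxygen, and the proton gradient built by complexes I, III and IV drives ATP synthesis by complex V. Most subunits are encoded in the nucleus, while the mitochondrial genome encodes some core subunits of every complex except II. MAX is a bHLH zipper protein that binds the E-box CACGTG as a dimer with MYC, MXD or MNT proteins, and BMAL1 is the bHLH-PAS activator of the circadian clock, which binds related E-boxes with CLOCK. Whether MAX and BMAL1 occupied the same regulatory regions was the question behind the paired immunoprecipitations.

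A promoter peak is a peak whose summit lay within 1 kb of any annotated transcription start site (TSS) of the gene. The pileup is the number of fragments stacked at the summit, and the fold enrichment is the ratio of that height to the background set by the peak caller with the input. This background was a few fragments at most, and its lowest value among the members (1.28) recurred at several, COX5B and UQCRC2 among them. Small differences in it therefore move the ratio. Where a gene had several promoter peaks, the one with the highest fold enrichment was used.

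MAX had a promoter peak at 49 of the 99 genes (49.5%, Wilson 95% interval 39.9 to 59.2, counting error only). Over all protein-coding genes the share was 36.3%. BMAL1 had a promoter peak at 0 of the 99, against 1.85% of all protein-coding genes. The count of 0 allows a share of up to 3.03%, so a share at the level of all genes was not excluded by the number of genes. No BMAL1 peak overlapped any of these 49 MAX regions. This overlap was not counted over all genes with a MAX promoter peak, so it is not read as a trait of the members.

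The reference sequence (hg19, plus strand, 5′ to 3′) at the strongest MAX peak of each complex shows what kind of DNA these summits lay on. Bases inside annotated exons of protein-coding genes were left out, and the stretch lies within 100 bases of the summit. Capitals mark CACGTG or the ETS family motif CCGGAAG (either strand) where one was found.

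NDUFS1 chr2:207024784-207024956: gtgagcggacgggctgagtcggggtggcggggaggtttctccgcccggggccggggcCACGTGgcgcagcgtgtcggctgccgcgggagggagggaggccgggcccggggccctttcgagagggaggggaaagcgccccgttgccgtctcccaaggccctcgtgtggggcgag
SDHC chr1:161284047-161284170: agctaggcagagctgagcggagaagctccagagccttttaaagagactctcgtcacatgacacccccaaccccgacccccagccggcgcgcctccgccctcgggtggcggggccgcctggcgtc
UQCR11 chr19:1605001-1605201: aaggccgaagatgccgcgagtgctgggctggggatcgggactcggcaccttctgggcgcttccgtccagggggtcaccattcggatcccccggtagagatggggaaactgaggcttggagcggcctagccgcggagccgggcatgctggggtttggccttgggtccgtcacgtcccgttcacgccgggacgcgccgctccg
COX5B chr2:98262379-98262524: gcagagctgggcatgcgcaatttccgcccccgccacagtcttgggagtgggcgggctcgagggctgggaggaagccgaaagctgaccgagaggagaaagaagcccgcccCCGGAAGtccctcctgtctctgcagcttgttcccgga

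The NDUFS1 stretch held an E-box, the COX5B stretch held an ETS motif, and the SDHC and UQCR11 stretches held neither. At ATP5PB, the strongest peak of complex V, all bases near the summit were inside annotated exons, and its E-box is shown with its flanks instead. The strongest peak of all, at NDUFAF6, is not shown.

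In 10 members the window of 100 bases either side of the summit held CACGTG. Each is printed in a context of 30 bases (plus strand, CACGTG in capitals), since CACGTG is the canonical MAX element.

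NDUFS1 chr2:207024829-207024858: cggggccggggcCACGTGgcgcagcgtgtc
NDUFV3 chr21:44299169-44299198: tcagcgtcgcccCACGTGctctacctaccc
NDUFS3 chr11:47586897-47586926: ctacagggctcaCACGTGtctggcctgcga
NDUFC1 chr4:140222675-140222704: ctgttcagttacCACGTGaaccgccgacgg
SDHD chr11:111957015-111957044: cttttctacgggCACGTGgcctgcaaggag
UQCRC2 chr16:21963919-21963948: gccccaagtcgtCACGTGactgactttctc
ATP5PB chr1:111991851-111991880: ggcagcaaacccCACGTGgtgcacctctga
ATP5F1A chr18:43678499-43678528: gccccgggtgacCACGTGggtagctgaatc
ATP5ME chr4:668210-668239: cggcggtgacgtCACGTGaggcgcacgcgc
NDUFAF5 chr20:13765536-13765565: cctaccaagcctCACGTGgggctcacaccc

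The E-box at SDHD lay on the summit itself. Those at NDUFS1, NDUFS3, NDUFV3 and NDUFAF5 lay 10, 14, 14 and 19 bases from it, those at ATP5PB and ATP5F1A 22 and 23 bases, and those at UQCRC2, NDUFC1 and ATP5ME 47, 51 and 77 bases.

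**Figure D1:**
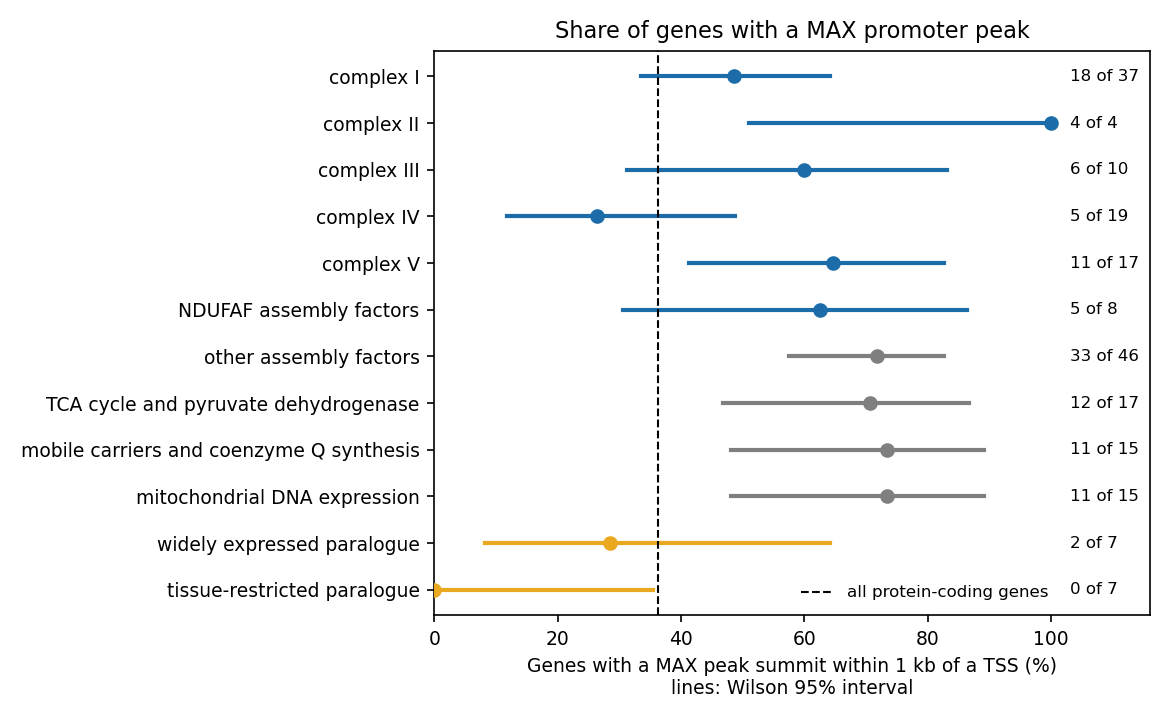
Share of genes with a MAX peak summit within 1 kb of a TSS, in percent, for each complex and for related gene lists, with Wilson 95% intervals as lines and the share of all protein-coding genes as a dashed line. Complex IV is the only complex to the left of the dashed line, with 5 of 19 genes. Those 19 include the 7 paralogues listed as tissue-restricted, which had 0 peaks. The 4 other mitochondrial lists in grey lie between 70.6% and 73.3%.

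By complex, MAX promoter peaks were at 18 of 37 genes of complex I (48.6%), 4 of 4 of complex II, 6 of 10 of complex III (60.0%), 5 of 19 of complex IV (26.3%) and 11 of 17 of complex V (64.7%), and at 5 of 8 NDUFAF assembly factors (62.5%). ATP5IF1, ATP5MGL and both readthrough genes had none. The intervals of complex II (51.0 to 100) and complex V (41.3 to 82.7) lay above the 36.3% of all genes, and those of complexes I (33.5 to 64.1), III (31.3 to 83.2) and IV (11.8 to 48.8) and of the assembly factors (30.6 to 86.3) included it. The intervals of complexes II and V did not stay above that of all genes throughout. With each peak given only to the gene of the nearest start complex V had 8 of 17 (47.1%, 26.2 to 69.0) and complex II 2 of 4, against 31.1% of all genes, and without shared start regions complex V had 3 of 7 (42.9%, 15.8 to 75.0) against 29.9%. The intervals of complexes IV and V overlapped. Genes are not replicates, so these intervals describe the lists and compare no conditions.

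The fold enrichment of the 49 strongest peaks ranged from 5.36 to 48.1 with a median of 10.9, and the median over all genes with a MAX promoter peak was 10.8. The median pileup was 17 fragments in the members and 19 in all genes. Of the 49, 6 (12.2%) were stronger than 90% of all MAX peaks, a level reached by 15.9% of all genes with a MAX promoter peak. The share of genes with a peak was thus above that of all genes, and the median strength of the peak was near it, on either side depending on the setting.

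**Figure D2:**
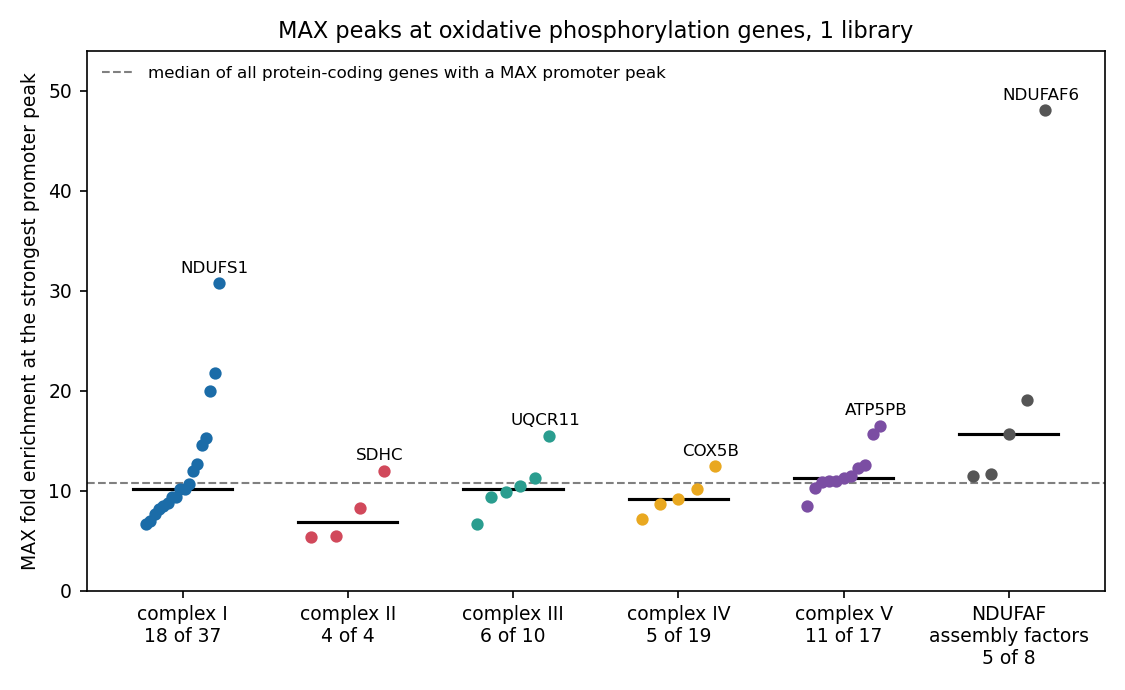
MAX fold enrichment at the strongest promoter peak of each member that had one, grouped by complex, with 1 point per gene, the median of each group as a black line and the median of all protein-coding genes with a MAX promoter peak (10.8) as a dashed line. NDUFAF6 at 48.1 and NDUFS1 at 30.8 stand above the other members, and the complex II genes SDHA, SDHB and SDHD lie below the dashed line.

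Complex I, the NADH dehydrogenase, had MAX promoter peaks on both core and accessory subunits. Of the 7 nuclear core subunits, which carry the flavin and the iron-sulphur clusters, 5 had a MAX promoter peak, and of the 30 accessory subunits 13 had one, with overlapping intervals (35.9 to 91.8 and 27.4 to 60.8). Within 1 kb of the canonical start alone the counts were 3 of 7 and 13 of 30, since the NDUFS3 and NDUFS8 summits were at other starts. NDUFS1, the large iron-sulphur subunit, had the strongest peak of the complex, with a pileup of 40 and a fold enrichment of 30.8 (chr2:207023961-207025098). Its summit lay 623 bp from the nearest NDUFS1 start and 198 bp from a start of EEF1B2, which encodes a translation elongation factor subunit. The other core subunits had fold enrichments of 14.6 for NDUFS3, 11.99 for NDUFV2, 9.40 for NDUFV1, which binds NADH and FMN, and 8.46 for NDUFS8. NDUFS7 had no peak, with the nearest MAX summit 15427 bp away.

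Among accessory subunits, NDUFV3 (21.8, pileup 36), NDUFA11 (20.0, pileup 29) and NDUFA6 (15.2, pileup 24) led, and NDUFB7 was lowest (6.68, pileup 15). The NDUFV3 summit was 14252 bp upstream of the canonical start, 587 bp from the nearest NDUFV3 start and 218 bp from one of WDR4, a tRNA methyltransferase subunit. A further peak with a fold enrichment of 15.0 and a pileup of 23 lay 150 bp upstream of the canonical NDUFV3 start. The NDUFS3 summit was likewise 13731 bp upstream of the canonical start, 7 bp from an alternative one. That summit was also within 1 kb of starts of CELF1 and PTPMT1, and no MAX summit lay within 1 kb of the canonical NDUFS3 start. NDUFS8 was the member nearest to the 1 kb limit, with a summit 981 bp from a start of one of its transcripts and 6329 bp downstream of the canonical start. Accessory subunits with no MAX promoter peak were NDUFA3, NDUFA5, NDUFA7, NDUFA8, NDUFA9, NDUFA10, NDUFA12, NDUFAB1, NDUFB3, NDUFB4, NDUFB6, NDUFB8, NDUFB9, NDUFB11, NDUFC2, NDUFS4 and NDUFS5.

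The NDUFAF factors, which assemble complex I and are not part of the finished enzyme, had the highest median fold enrichment of the groups (15.7, n = 5 genes). This median was the value of NDUFAF5, and it would be lower with the NDUFAF6 peak at the canonical start in place of the strongest one. NDUFAF6 had the strongest peak of all members, with a pileup of 100 and a fold enrichment of 48.1 on chromosome 8. The summit was 12 bp from an alternative NDUFAF6 start and within 1 kb of a start of CCNE2, which encodes cyclin E2, and it lay 129210 bp upstream of the canonical NDUFAF6 start. At the canonical start itself the peak was much smaller, with a pileup of 22 and a fold enrichment of 11.2. NDUFAF4 followed with 19.0, NDUFAF5 with 15.7, NDUFAF7 with 11.7 and NDUFAF3 with 11.4. The NDUFAF5 summit was 7 bp from a start of ESF1, a nucleolar factor of ribosome biogenesis. NDUFAF1, NDUFAF2 and NDUFAF8 had no peak.

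Complex II, succinate dehydrogenase, is the only complex of the chain encoded wholly in the nucleus, and its 4 genes all had a MAX promoter peak, with fold enrichments below the median of all genes at 3 of them. The fold enrichment was 11.98 at SDHC, a membrane anchor, 8.25 at SDHB, the iron-sulphur subunit, 5.44 at SDHA, the flavoprotein, and 5.36 at SDHD, the other anchor. SDHA and SDHD were the only members among the weakest 10% of all MAX peaks by fold enrichment. Their pileups were 15 and 19, within the range of the other members, and the local background under them was 2.76 and 3.54 fragments, against 1.34 at SDHC and 1.58 at SDHB. The SDHA summit was nearest to CCDC127 (60 bp) and the SDHD summit to TIMM8B (415 bp), a mitochondrial import chaperone. With each peak given only to the gene of the nearest start, 2 of the 4 genes kept a peak. At a -log10 p of at least 12, SDHC alone did.

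**Figure D3:**
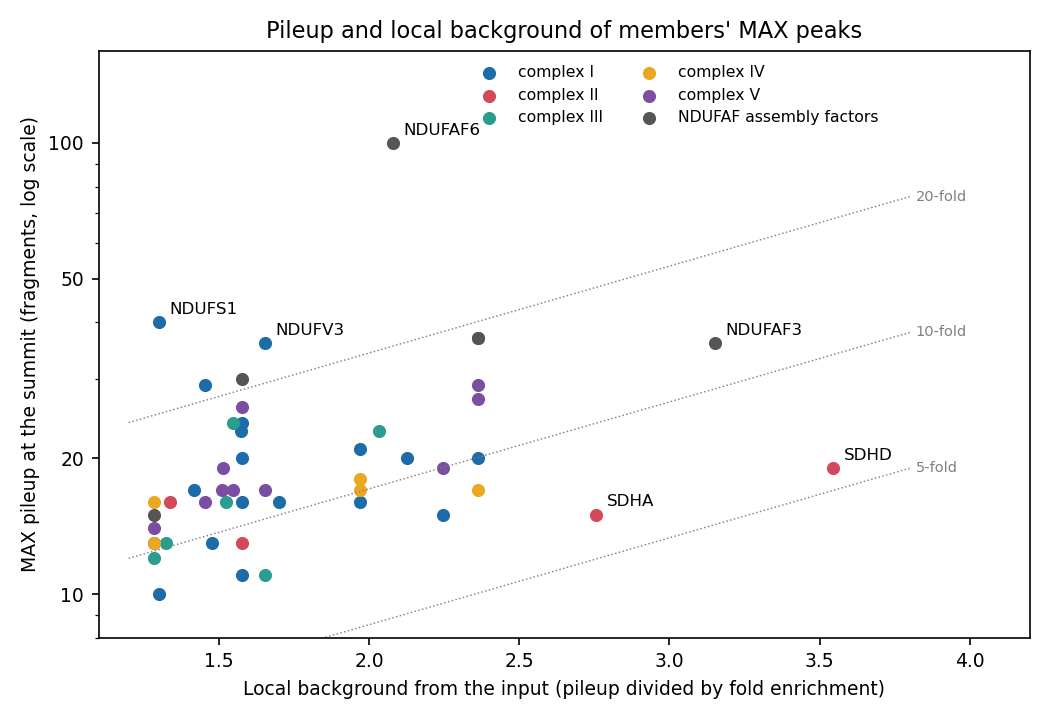
MAX pileup at the summit (fragments, log scale) against the local background (pileup divided by fold enrichment) for the strongest promoter peak of each of 49 members, coloured by complex, with dotted lines at a ratio of 5, 10 and 20. SDHA and SDHD lie near the lowest line at backgrounds of 2.76 and 3.54 with pileups of 15 and 19, and NDUFAF6 stands alone at a pileup of 100.

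Complex III had peaks at both catalytic nuclear subunits, CYC1 (cytochrome c1, fold enrichment 11.3, pileup 23) and UQCRFS1 (the Rieske iron-sulphur protein, 9.82, pileup 13). The small subunit UQCR11 had the strongest peak (15.5, pileup 24), and UQCRQ had 10.5, with its summit 15 bp from a start of GDF9 and 331 bp from its own. The core protein gene UQCRC2 was enriched 9.35-fold, and its summit was 725 bp from the nearest start. UQCR10 was lowest (6.65, pileup 11), with its summit 182 bp from a start of ZMAT5 and 544 bp from its own. UQCRB, UQCRC1, UQCRH and UQCRHL had none. The summits of this complex were far from the starts: with a limit of 300 bp in place of 1 kb, 1 of the 10 genes kept a peak. The interval of that share was 1.79 to 40.4, and 29.1% of all genes had a peak at 300 bp. UQCRC1, with a summit 4918 bp away, and the complex IV gene COX6B1, with one 3659 bp away, were the members just outside the limit, and no member had its nearest summit between 1 and 2 kb.

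Complex IV, cytochrome c oxidase, had the lowest share of the 5 complexes at the 1 kb limit. At 300 bp it had 4 of 19 (21.1%, interval 8.51 to 43.3) and complex III was lower with 1 of 10. The share of all genes at 300 bp, 29.1%, was inside the intervals of both complexes. COX5B had the strongest of its peaks (12.5, pileup 16), followed by COX7A2L (10.1, pileup 13), a factor of supercomplex assembly, COX6C (9.14, pileup 18), COX8A (8.63, pileup 17) and COX7A2 (7.19, pileup 17). None of the 5 was near a start of another coding gene, and the count was the same with genes that share a start region left out. COX4I1, COX4I2, COX5A, COX6A1, COX6A2, COX6B1, COX6B2, COX7A1, COX7B, COX7B2, COX7C, COX8C, NDUFA4 and NDUFA4L2 had no peak. Several of these were remote from any MAX summit, with distances of 2056554 bp for COX7C, 1270896 bp for NDUFA4 and 185862 bp for COX4I1.

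Some subunits of complex IV occur as paralogues, of which one can be used in most tissues and the other in few, such as COX7A1 in heart and muscle. They were grouped here by a gene list, with no expression values used. The 7 paralogues listed as tissue-restricted (COX4I2, COX6A2, COX6B2, COX7A1, COX7B2, COX8C and NDUFA4L2) had 0 MAX promoter peaks. Their 7 widely expressed counterparts had 2, at COX7A2 and COX8A, and COX4I1, COX6A1, COX6B1, COX7B and NDUFA4 had none. The share of the widely expressed paralogues was 28.6% with an interval of 8.22 to 64.1, which overlapped that of the restricted ones, reaching 35.4%. Over all genes the share was 36.3%, inside the first interval and slightly above the second. All 7 restricted paralogues were counted in the 19 genes of complex IV, and its 5 peaks were at other genes. The place of complex IV below the share of all genes at the 1 kb limit depends on counting these 7. The CpG ratio of the restricted paralogues, which also goes with the share, is given below.

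Complex V, the ATP synthase, had 11 peaks, of which 3 were at the 5 genes of the catalytic F1 head and 8 at the 12 genes of the membrane part and stalk. In F1, ATP5F1A (subunit alpha) had a fold enrichment of 12.6, ATP5F1E (epsilon) 12.3 and ATP5F1C (gamma) 11.2, while ATP5F1B, the catalytic subunit beta, and ATP5F1D had no peak. The nearest MAX summit to ATP5F1B was 42292 bp away. In the membrane part, ATP5PB (stalk subunit b, 16.5, pileup 26) and ATP5MK (15.7, pileup 37) led. Both summits were nearer to a start of another gene. At ATP5PB this was WDR77 (12 bp, own start 196 bp) and at ATP5MK it was PDCD11 (52 bp, own start 82 bp). The paralogues ATP5MC1 and ATP5MC2, which encode the same ring subunit c, had 11.4 and 10.3, and the third, ATP5MC3, had no peak within 13317 bp. ATP5PF was lowest with 8.46. Its start region is shared with GABPA, the gene of an ETS family factor, and the summit lay 6 bp from the ATP5PF start. ATP5MF, ATP5PD and ATP5PO had none. Of the 11 peaks, 10 reached a -log10 p of 12, the highest proportion of the complexes, while 31 of the 49 members did so in all (31.3% of the 99, against 23.5% of all protein-coding genes).

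The summits lay close to the starts, at a median of 89 bp from the nearest start of the gene, against 117 bp over all genes with a MAX promoter peak. Within 100 bp were 26 of 49 (53.1%), against 46.05% over all genes with a MAX promoter peak. Of the 49 summits, 35 (71.4%) were upstream of the canonical start, against 61.7% over all genes. Peaks of the members were 300 to 1685 bp long with a median of 472 bp. There were 49 distinct strongest peaks for the 49 genes, so no 2 members shared one. ATP5F1A, ATP5F1E, NDUFAF5, NDUFAF6, NDUFV3 and UQCR11 had 2 promoter peaks each.

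Many of these start regions held a start of another annotated coding gene, which at ATP5MG and UQCR11 had an Ensembl identifier and no symbol. In 26 of 49 (53.1%) the summit was also within 1 kb of a start of another coding gene, against 31.7% over all genes with a MAX promoter peak. In 12 of 49 (24.5%, against 16.3%) that other start was the nearer one. A coding start on the opposite strand within 1 kb was annotated for 35 of the 99 members (35.4%) and for 13.8% of all genes. MAX had a promoter peak at 21 of these 35 (60.0%), against 62.8% of all genes of this class, and at 28 of the 64 other members (43.8%), against 32.1%. Without the readthrough genes and the genes whose start region holds another coding start, 21 of 50 members (42%) had a MAX promoter peak, against 29.9% of all genes treated likewise. The part of shared start regions in the share of the members was not tested beyond these values.

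Base composition moved with the share as well. The ratio of observed to expected CpG in the 300 bases around the canonical start (250 upstream and 50 downstream) was at least 0.6 in 90 of the 99 members and in 67.0% of all genes. Within this class MAX had a promoter peak at 48 of 90 members (53.3%) and at 49.0% of all genes, a difference of a few percentage points where the unsplit shares were 49.5% and 36.3%. Below 0.6 it was 1 of 9 members (11.1%) and 10.5% of all genes. Within the class of at least 0.6, complex IV had 5 of 14 (35.7%), complex I 17 of 35 (48.6%) and complex V 11 of 17 (64.7%). Split by both properties, members with such a CpG ratio and no opposite-strand start had 27 of 56 (48.2%, against 45.1% of all genes) and those with one 21 of 34 (61.8%, against 66.0%). Of the 7 tissue-restricted paralogues, 4 were below 0.6, with NDUFA4L2 the lowest of all members at 0.19. The part of base composition in the share was not tested beyond these values.

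**Figure D4:**
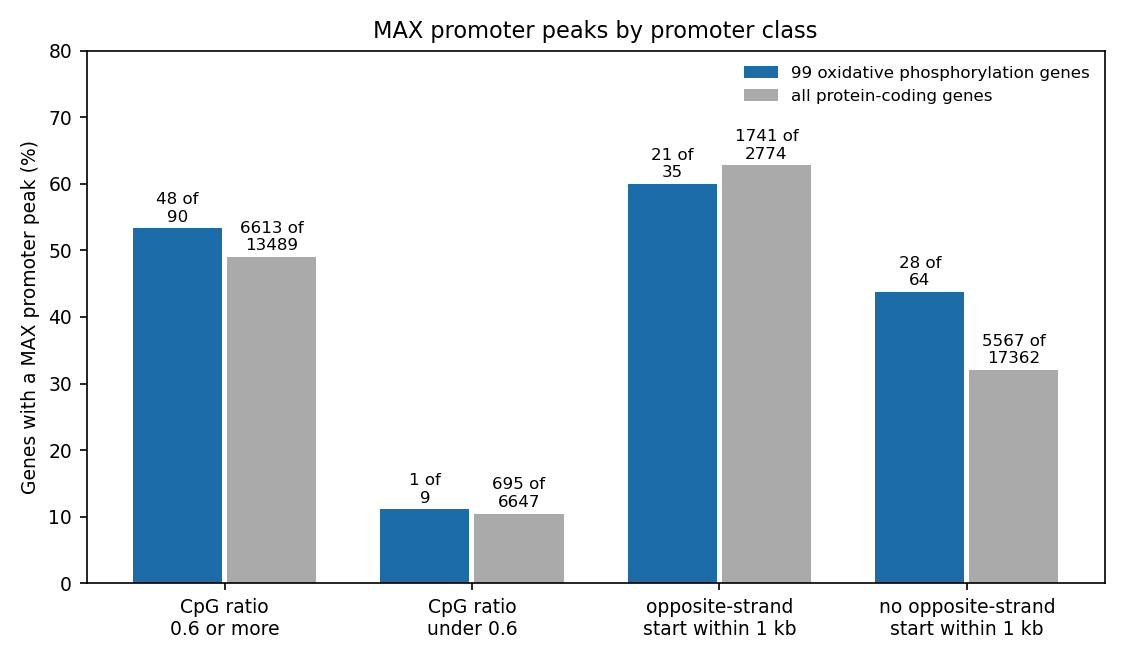
Percent of genes with a MAX promoter peak in classes of promoters, for the 99 oxidative phosphorylation genes (blue) and all protein-coding genes (grey), with the number of genes with a peak and in the class above each bar. The 2 bars are 53.3% and 49.0% for a CpG ratio of 0.6 or more, and 43.8% and 32.1% for genes with no opposite-strand coding start within 1 kb.

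CACGTG near the summit was no more common in the members than elsewhere, in 10 of 49 (20.4%) against 21.0% over all genes with a MAX promoter peak. The nearest starts to these E-box peaks were compared after their values were seen, with no test. In 7 of the 10 (70.0%) the nearest coding start belonged to another gene, against 14.6% over all 1537 genes with an E-box at the summit. These neighbours were EEF1B2 at NDUFS1, WDR4 at NDUFV3, NAA15 at NDUFC1, TIMM8B at SDHD, WDR77 at ATP5PB, MYL5 at ATP5ME and ESF1 at NDUFAF5. In NDUFS3, UQCRC2 and ATP5F1A the nearest start was the gene's own. Among the 39 member peaks without CACGTG the nearest start was another gene's in 5 (12.8%, against 16.7%). With each peak given only to the gene of the nearest start, 3 of 39 members (7.69%) had an E-box at the summit against 21.2% of all genes, and without genes that share a start region 1 of 21 (4.76%) against 21.5%. The median fold enrichment was 13.6 for the 10 peaks with CACGTG and 10.3 for the 39 without, and over all genes it was 13.4 and 10.2. None of the 5 complex IV peaks held CACGTG within 100 bases of the summit.

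**Figure D5:**
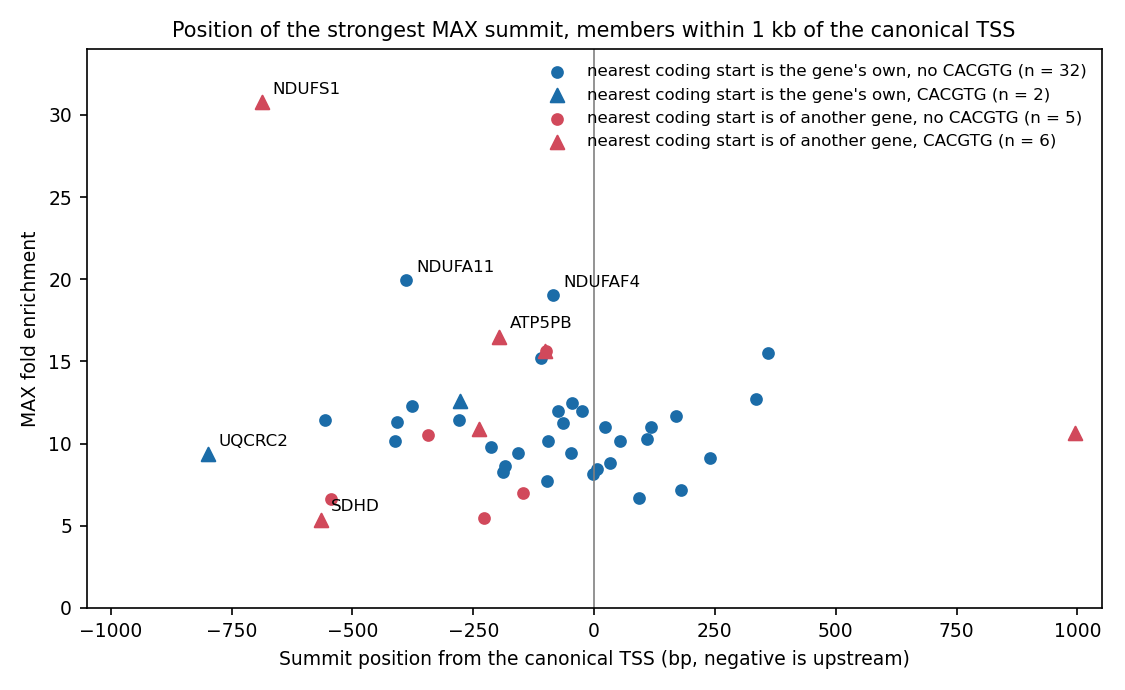
MAX fold enrichment against the position of the summit from the canonical TSS in bp (negative is upstream) for the 45 members whose summit lay within 1 kb of it, with triangles for CACGTG within 100 bases of the summit and red for summits whose nearest coding start is another gene's. Most triangles are red, among them NDUFS1 at 30.8, and the blue circles gather around the start.

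Other promoter motifs were counted as a description. CCGGAAG, searched on both strands, was within 100 bases of the summit in 9 of 49 members (18.4%, against 13.8%) and in the 300-base promoter of 26 of 99 (26.3%, against 14.0% of all promoters). By complex the promoters with CCGGAAG were 8 of 37 in I, 2 of 4 in II, 3 of 10 in III, 5 of 19 in IV and 6 of 17 in V. Member promoters with a MAX peak held CCGGAAG in 18 of 49 (36.7%) and those without in 8 of 50 (16.0%), and over all genes the shares were 22.3% and 9.28%. ATGGCGGC, a motif of the zinc finger factor YY1 searched on both strands, was in 17 of 99 promoters (17.2%, against 4.54%). It was spread unevenly over the complexes, with 11 of 37 promoters in complex I, 2 of 8 in the NDUFAF factors, 3 of 10 in complex III and 1 of 4 in complex II, and 0 of 19 in complex IV and 0 of 17 in complex V. Promoters with a MAX peak held it in 10 of 49 (20.4%) and those without in 7 of 50 (14.0%), so it was present in both. Over all genes these shares were 7.17% and 3.05%. CACGTG was in the 300-base promoter of 7 of 49 members with a MAX peak (14.3%, against 12.9% of all genes with one). NDUFA7 and NDUFS7 had CACGTG in the promoter and no MAX promoter peak.

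The nearest BMAL1 summit was at a median distance of 759009 bp from the members, with 2 within 10 kb and 16 within 100 kb. These distances were not computed over all protein-coding genes, so they are not read as a trait of the members. The closest BMAL1 summit was 1542 bp from a start of NDUFS6, an accessory subunit of complex I (chr5:1799881-1800180, pileup 19, fold enrichment 9.56). It lay 27 bp from a start of MRPL36, which encodes a mitochondrial ribosomal protein and is the divergent neighbour of NDUFS6, and a MAX peak was there too (summit 85 bp away, fold enrichment 10.2). NDUFS6 had its own MAX peak at its start, with a fold enrichment of 8.80 and no BMAL1 peak. The next nearest were 7055 bp from NDUFA4L2, at SHMT2, a mitochondrial serine hydroxymethyltransferase (fold enrichment 17.5), 10086 bp from NDUFV2, at ANKRD12 (11.7), and 18221 bp from COX5A, nearest to RPP25 (11.0). Each of these 4 BMAL1 peaks overlapped a MAX peak and held CACGTG within 100 bases of its summit. Neither property was counted over all BMAL1 peaks, so they are not read as a trait of sites near the members. The paper reports that most BMAL1 sites overlapped MAX regions and that E-box motifs were enriched in BMAL1 sites. With the limit at 2 kb, NDUFS6 would have been the 1 member with a BMAL1 peak (1.01%, against 2.08% of all genes).

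The other genes that build and feed the respiratory chain had higher shares of MAX promoter peaks than the 99 members (49.5%), with intervals that overlapped theirs. Over all protein-coding genes the share was 36.3%. The peaks were at 33 of 46 further assembly factors (71.7%, interval 57.5 to 82.7), led by UQCC2 of complex III (fold enrichment 23.4), ATPAF2 of the ATP synthase (20.5) and PET117 of complex IV (19.7). The tricarboxylic acid cycle and pyruvate dehydrogenase had 12 of 17 (70.6%, 46.9 to 86.7), led by FH, fumarase (13.2), and SUCLA2 (13.1). Mobile carriers and coenzyme Q synthesis had 11 of 15 (73.3%, 48.1 to 89.1), with 11.2 at CYCS, which encodes cytochrome c. Genes that replicate and transcribe mitochondrial DNA had 11 of 15 (73.3%, 48.1 to 89.1), with 21.8 at TFB2M, 11.2 at the RNA polymerase gene POLRMT and 7.30 at TFAM, which packages the mitochondrial genome. The promoters of the 4 lists were of like composition, with a CpG ratio of at least 0.6 in 45 of 46, 17 of 17, 15 of 15 and 15 of 15. Of all genes in this CpG class, 49.0% had a MAX promoter peak. Of the complex IV assembly factors with COX, SCO or SURF symbols in that list, COX10, COX11, COX14, COX15, COX20, SCO1 and SCO2 had MAX peaks with fold enrichments of 6.69 to 14.8, and COX16, COX17, COX18, COX19 and SURF1 had none. A single gene of these lists had a BMAL1 promoter peak: TWNK, the mitochondrial DNA helicase, with a BMAL1 fold enrichment of 6.34 (pileup 21) and a MAX fold enrichment of 9.52 (pileup 27).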

How the data were processed

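The deposited peak lists of BMAL1 and MAX immunoprecipitations from MDA-MB-231 were analysed, with 1 library per antibody and 1 input. Reads were mapped by the authors to hg19 (BWA 0.6.2) and peaks called with MACS2 2.0.9, separately per antibody. Per the file headers, the pileup is the signal (coverage of tags extended to 300 bp) at the summit, not scaled to depth. The fold enrichment is the ratio deposited by the authors of that pileup to the background of the peak caller, and -log10 p and -log10 q are also as deposited. The headers record a p cutoff of 1e-05, and all listed peaks were used. Duplicates were limited to 2 tags per position for BMAL1 and 1 for MAX. A gene without a peak is one where none passed at this depth.

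Summits were placed within 1 kb of any TSS in GENCODE release 44 lifted to GRCh37, the same assembly as hg19. Placement was tested on simulated data, where 200 of 200 planted summits were found. Motifs were counted within 100 bases of the summit and in 300-base promoters of the same genome. Values are counts, shares and medians beside those of all protein-coding genes, with no test, since there are no replicates. The named genes were the 3 highest members and the lowest of each complex, those with no peak (1 is not reported here), paralogues and core subunits, those nearest the 1 kb limit, and members with a BMAL1 promoter peak; neighbours, members with CACGTG at the summit and genes of other pathways were named after their values were seen. The members and lists were chosen with earlier results of these data known. Alternatives were the window, which TSSs count, stricter peaks, start regions not shared, other motif windows and other measures of strength. Python 3.11.15, pysam 0.24.0 and pandas 2.3.3 were used.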

Additional observations from a re-analysis of the deposited data

How the results depend on the processing

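Of 104 alternative values, 83 stayed within 1.5 times the main count or, for the median fold enrichment of members, within its 95% interval. Members with a MAX promoter peak numbered 39 to 49 except under the following. With a -log10 p of at least 12 there were 31 members with a peak, of them 10 in complex I, 1 in II, 3 in III and 2 in IV, beside 4723 genes of all, and the median fold enrichment of members was 11.99 (all genes 12.69). Without readthrough genes and shared start regions, which left 50 members, there were 21, of them 7 in complex I, 2 in II, 3 in III and 3 of 7 in V, beside 4620 of all genes, and 1 with CACGTG at the summit. The median fold enrichment was then 10.13 (all genes 10.66). With a limit of 300 bp complex III had 1 of 10, against 29.1% of all genes, and the members with CACGTG were 6. With a limit of 2 kb 1 member had a BMAL1 peak. With peaks given to the nearest TSS alone, an alternative chosen after seeing the data, complex II had 2 and the members with CACGTG were 3. The member median fold enrichment of 10.91 was thus above the 10.79 of all genes in the main setting. It was below with a -log10 p of at least 12 and without shared start regions. With a limit of 300 bp (10.95 against 10.71) and with peaks given to the nearest TSS alone (10.98 against 10.66) it stayed above. The member median was also below by pileup (17 against 19) and by -log10 p (12.84 against 13.98). Fewer genes or peaks enter under the stricter settings by construction, and the cause of the reversals was not tested. No paired analysis was possible because each antibody has 1 library.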
